A study of Mus musculus with 9 samples.

Results

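The genes described here are the PARP family of ADP-ribosyltransferases and Dtx3l, a ubiquitin ligase that pairs with Parp9, in mouse brain tissue around the site of a baculoviral vector injection. Members were taken as every probe set whose only gene symbol in the platform annotation was Parp1, Parp2, Parp8, Parp9, Parp10, Parp11, Parp12, Parp14 or Dtx3l. This gave 14 of the array's 45101 probe sets, for 8 of the 9 listed genes. The probe set of Parp10 also names Plec, so Parp10 has no value here. The members fall into 5 interferon-inducible genes (Parp9, Parp11, Parp12, Parp14 and Dtx3l, with 8 probe sets), the DNA-repair genes Parp1 and Parp2 (with 5 probe sets), and Parp8 with 1.

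PARP enzymes move ADP-ribose from NAD onto proteins. Parp1 and Parp2 sense DNA breaks and build long ADP-ribose chains that recruit repair factors. Most other members add a single ADP-ribose, and several of their genes are switched on by interferon, the cytokine that alerts cells to a virus. Their products mark viral and host proteins, and viruses of several families carry enzymes that remove the mark.

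Adult male immunocompetent BALB/c mice were injected into the striatum on each side and tissue was collected after 2 days, with 3 mice and 3 arrays in each of 3 groups. HS mice received BV-HSVtk, a baculoviral vector, purified by high-speed centrifugation, and MC+HS mice the same vector purified by membrane chromatography followed by high-speed centrifugation. Both vector groups received 100000000 particles in 10 µL per side. Mock mice received virus-free Sf9 insect cell medium carried through the MC+HS purification, so HS and mock differ in the vector and in the purification, and these cannot be told apart. The design asks how expression in the brain differs after vector from the different purifications.

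Levels are log2(signal + 16) after each array's median was moved to a common value, and a difference of 1 on this scale is close to a 2-fold change for bright probe sets and a larger one for dim ones. Probe sets counted as measured when at least 3 arrays had them above that array's 40th percentile. This left 28257 probe sets for 13331 genes, and all 14 member probe sets were among them. A call means an adjusted p under 0.05 in limma over all probe sets measured. The array of HS replicate 1 stood apart, with a median correlation with the other arrays of 0.757 against 0.956 to 0.979, and a Gapdh 3′ to 5′ signal ratio of 2.00 against 0.865 to 0.932. Its spread of log2 levels was 1.32 against 1.61 to 1.70. Median signals before the shift were 147 to 263 intensity units. The comparisons were therefore fitted with all 9 arrays and again without HS replicate 1. For the probe sets named here, leaving it out changes the error of a difference of MC+HS from mock but not its size.

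With all 9 arrays, limma called 0 of the 5 interferon-inducible genes in either vector group against mock, although 3 of 5 had an unadjusted p under 0.05 in each comparison. Of all 13331 genes, 874 in HS and 643 in MC+HS had an unadjusted p under 0.05. Over all genes, 0.893% were called higher and 0.0375% lower in HS, and 0.690% higher and 0.0225% lower in MC+HS. Without HS replicate 1, all 5 interferon-inducible genes (Parp9, Parp11, Parp12, Parp14 and Dtx3l) were called higher in HS and in MC+HS, while Parp1, Parp2 and Parp8 were not called. The background was then 3.83% of genes called higher and 0.401% lower in HS, and 3.26% higher and 0.446% lower in MC+HS. The median difference of the 5 genes was 2.48 in HS and 2.08 in MC+HS, beside 0.05 and 0.01 over all genes measured. It was 1.91 and 2.08 with all 9 arrays, beside -0.23 and 0.01. HS and MC+HS were set against the same mock arrays, so their differences from mock are not independent.

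**Figure D1:**
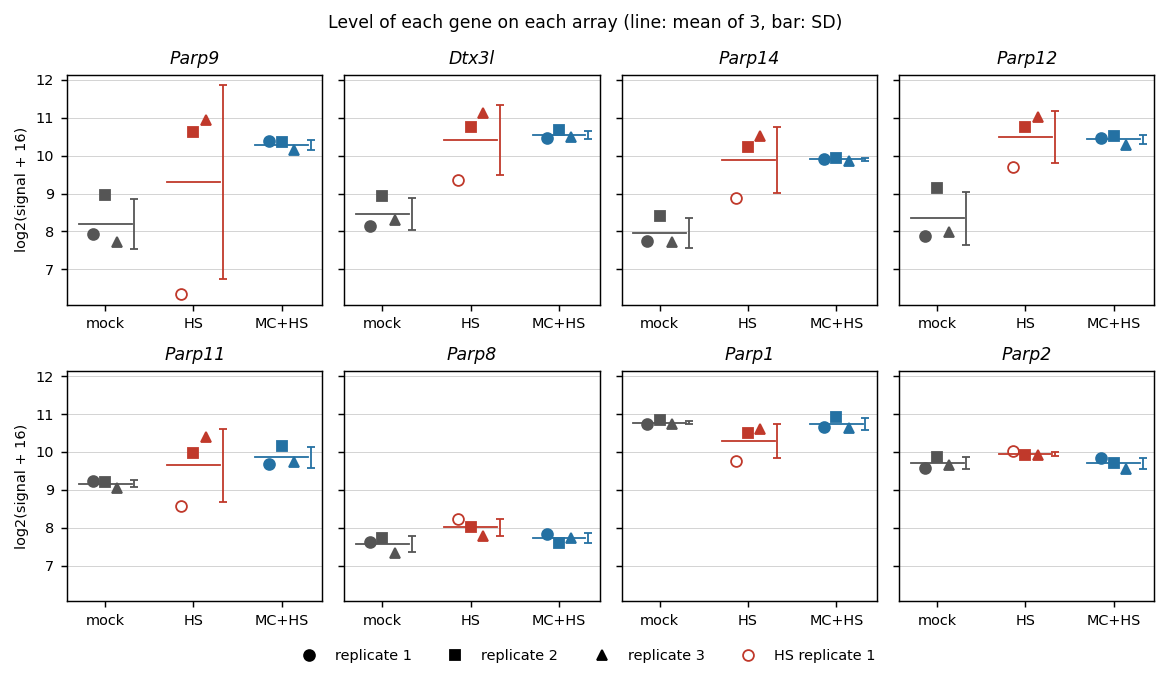
Level of each of the 8 measured genes, by the probe set with the highest mean, on each of the 9 arrays. The y axis is log2(signal + 16), symbols give the replicate, the open circle is HS replicate 1, lines are group means of 3 and bars their SD. Parp9, Dtx3l, Parp14 and Parp12 lie near 10 to 11 on the 5 vector arrays other than HS replicate 1 and between 7.72 and 9.15 on the mock arrays. For Parp1, and for Parp2 at a lower level, the MC+HS arrays overlap the mock arrays.

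Parp9 has little catalytic activity by itself and works as a complex with Dtx3l. Its level was 7.93, 8.95 and 7.72 in mock, 6.35, 10.62 and 10.93 in HS, and 10.38, 10.35 and 10.14 in MC+HS. All 3 MC+HS arrays and HS replicates 2 and 3 lay above every mock array, and HS replicate 1 lay below all of them, so HS and mock overlapped. With all 9 arrays the difference was 1.10 ± 1.03 (SE, adjusted p = 0.645) in HS and 2.09 ± 1.03 (adjusted p = 0.9999) in MC+HS. Without it Parp9 rose by 2.58 ± 0.29 (adjusted p = 0.000454), a 5.96-fold change, in HS and by 2.09 ± 0.26 (adjusted p = 0.000958), or 4.27-fold, in MC+HS.

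Dtx3l is the E3 ubiquitin ligase of that complex, which acts on histones and takes part in antiviral signalling. The level of its brighter probe set was 8.14, 8.93 and 8.31 in mock, 9.36, 10.75 and 11.12 in HS, and 10.47, 10.67 and 10.48 in MC+HS. Every vector array, HS replicate 1 included, lay above every mock array. The difference was 1.95 ± 0.43 (adjusted p = 0.117) in HS and 2.08 ± 0.43 (adjusted p = 0.0971) in MC+HS with all 9 arrays, and 2.48 ± 0.21 (adjusted p = 7.31e-05) and 2.08 ± 0.18 (adjusted p = 0.000128) without HS replicate 1. A second Dtx3l probe set, 1439825_at, showed the same order of groups. It read 8.22, 8.61 and 8.38 in mock, 8.89, 10.21 and 10.58 in HS, and 9.84, 9.96 and 10.01 in MC+HS, and was called at 1.99 and 1.53 without HS replicate 1.

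Parp14 is a large PARP with macrodomains, modules that bind ADP-ribose, and is known for its part in interleukin-4 and STAT6 signalling. Probe set 1451564_at read 7.75, 8.42 and 7.73 in mock, 8.88, 10.23 and 10.51 in HS, and 9.91, 9.93 and 9.86 in MC+HS. Vector and mock arrays did not overlap, and the MC+HS arrays lay closer together than those of either other group. Differences were 1.91 ± 0.39 (adjusted p = 0.0893) in HS and 1.93 ± 0.39 (adjusted p = 0.0925) in MC+HS with all 9 arrays. Leaving out HS replicate 1 gave 2.40 ± 0.19 (adjusted p = 5.56e-05), or 5.28-fold, and 1.93 ± 0.17 (adjusted p = 0.000128), or 3.82-fold.

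The other Parp14 probe set, 1432548_at, was the one member probe set called with all 9 arrays, in HS at 2.31 ± 0.33 (adjusted p = 0.0161). It was 1.89 ± 0.33 (adjusted p = 0.0506) in MC+HS. It read 5.19, 6.56 and 5.24 in mock, 8.03, 7.99 and 7.89 in HS, and 7.58, 7.64 and 7.43 in MC+HS. Here HS replicate 1 was at the level of the other HS arrays. The probe set was above the 40th percentile on only 6 arrays, those of the vector groups, so it entered the test through the groups where it was high, and its mock level was dim.

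Parp12 has zinc fingers of the kind that bind RNA and restrains several RNA viruses. It read 7.89, 9.15 and 7.99 in mock, 9.71, 10.74 and 11.01 in HS, and 10.47, 10.52 and 10.28 in MC+HS. Vector and mock arrays did not overlap, with mock replicate 2 highest in its group and HS replicate 1 lowest in its own. The difference was 2.14 ± 0.42 (adjusted p = 0.0663) in HS and 2.08 ± 0.42 (adjusted p = 0.0864) in MC+HS with all 9 arrays. Parp12 rose by 2.53 ± 0.30 (adjusted p = 0.00069), or 5.78-fold, in HS and by 2.08 ± 0.27 (adjusted p = 0.00131), or 4.22-fold, in MC+HS without HS replicate 1.

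Parp11 is a mono-ADP-ribosyltransferase found at the nuclear envelope. Its brighter probe set read 9.23, 9.22 and 9.05 in mock, 8.57, 9.97 and 10.40 in HS, and 9.67, 10.17 and 9.73 in MC+HS. As with Parp9, HS replicate 1 lay below every mock array and the other 5 vector arrays above them. With all 9 arrays the difference was 0.48 ± 0.42 (adjusted p = 0.637) in HS and 0.69 ± 0.42 (adjusted p = 0.9999) in MC+HS, and without HS replicate 1 it was 1.02 ± 0.17 (adjusted p = 0.00641) and 0.69 ± 0.15 (adjusted p = 0.0346). Its second probe set, 1444029_at, was not called, at 0.78 and 0.82 without HS replicate 1, and ran from 6.11 to 7.47 in mock. Parp11 was thus the smallest of the 5 differences in each vector group without HS replicate 1.

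By gene, 3 of the 5 interferon-inducible members had every HS array above every mock array, against 4.82% of all genes, and 5 of 5 had every MC+HS array above every mock array, against 11.0% of all genes. The mean deviation of the 5 genes from their mock means was -0.24, 0.51 and -0.27 on the mock arrays, 0.15, 2.03 and 2.37 on the HS arrays, and 1.75, 1.90 and 1.67 on the MC+HS arrays. The low value of HS replicate 1 came beside a median deviation of -0.73 over all genes on that array. That array's mean was taken over unlike values, from -1.85 for Parp9 to 1.36 for Parp12.

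**Figure D2:**
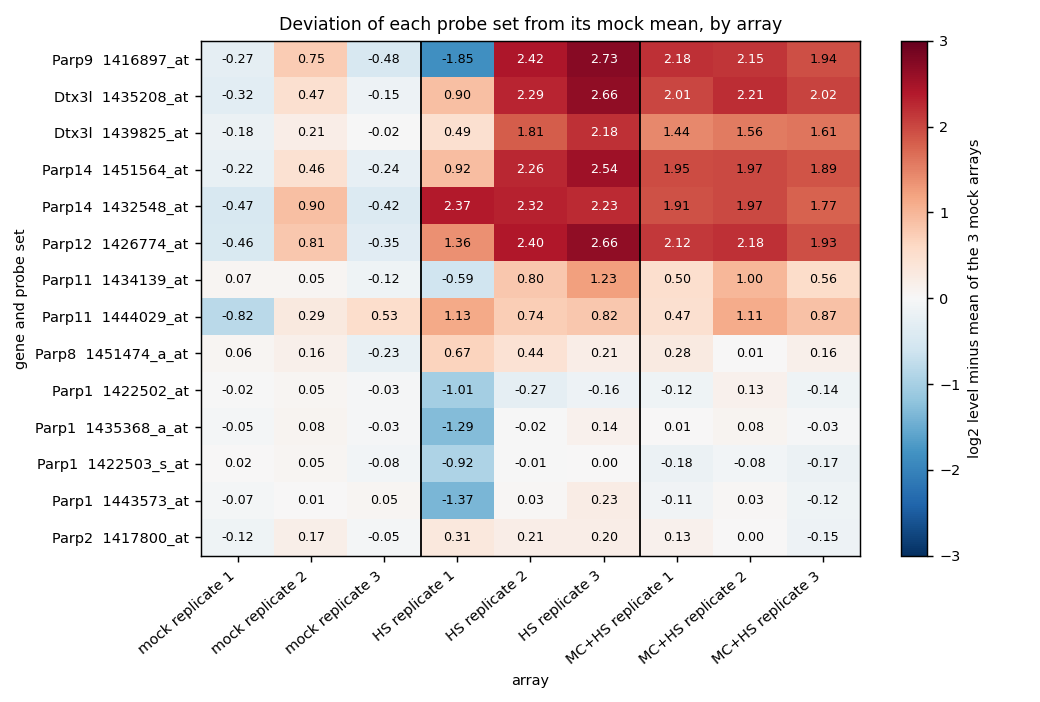
Log2 level of each of the 14 member probe sets (rows) on each of the 9 arrays (columns) minus that probe set's mean over the 3 mock arrays, with the value printed in each cell and red for higher. The rows of Parp9, Dtx3l, Parp14 and Parp12 are 1.44 or more above mock on HS replicates 2 and 3 and on the MC+HS arrays, mock replicate 2 is above the other mock arrays in these rows, and HS replicate 1 differs from the other HS arrays in most rows.

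Parp1 did not differ detectably between the groups. Its brightest probe set, 1422502_at, read 10.75, 10.83 and 10.74 in mock, 9.77, 10.50 and 10.61 in HS, and 10.65, 10.91 and 10.63 in MC+HS. HS lay below mock on all 3 arrays, farthest on HS replicate 1, while MC+HS overlapped mock. The HS difference was -0.48 ± 0.27 (adjusted p = 0.635) with all 9 arrays and -0.22 ± 0.11 (95% interval -0.46 to 0.02, adjusted p = 0.412) without HS replicate 1. In MC+HS the difference was -0.04, with a 95% interval of -0.65 to 0.57 with all 9 arrays and -0.26 to 0.17 without HS replicate 1.

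The other 3 Parp1 probe sets did not repeat that small HS deficit once HS replicate 1 was left out. They gave 0.06 for 1435368_a_at, -0.01 for 1422503_s_at and 0.13 for 1443573_at, and each HS range then overlapped mock. On HS replicate 1 the 4 Parp1 probe sets were 0.92 to 1.37 below their mock means. In MC+HS, 1422503_s_at lay below mock on every array, at -0.14 (adjusted p = 0.511 in limma without HS replicate 1), while 1435368_a_at and 1443573_at overlapped mock. No Parp1 probe set was called in any comparison, with or without HS replicate 1. The s_at probe set may also bind related transcripts.

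Parp2, the close relative of Parp1 in break repair, read 9.59, 9.88 and 9.65 in mock, 10.02, 9.92 and 9.91 in HS, and 9.84, 9.71 and 9.55 in MC+HS. HS arrays lay just above mock, including HS replicate 1, and MC+HS overlapped mock. The difference was 0.24 ± 0.19 (adjusted p = 0.635) in HS with all 9 arrays, 0.21 ± 0.12 (95% interval -0.07 to 0.48, adjusted p = 0.510) without HS replicate 1, and -0.01 in MC+HS, with a 95% interval of -0.44 to 0.42 with all 9 arrays and -0.25 to 0.24 without that array. Neither DNA-repair gene had an unadjusted p under 0.05 in either fit. With mock replicate 2 left out as well as HS replicate 1, Parp2 in HS was 0.29 above mock (95% interval 0.001 to 0.59). Its unadjusted p was then 0.0493 and its adjusted p 0.357 in limma, beside 2141 of 13160 genes with an unadjusted p under 0.05. A rise as large as those of Parp9, Parp12, Parp14 or Dtx3l lies outside these intervals.

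Parp8, a mono-ADP-ribosyltransferase with few known targets, read 7.64, 7.74 and 7.34 in mock, 8.24, 8.01 and 7.78 in HS, and 7.85, 7.59 and 7.73 in MC+HS. Each HS array was above each mock array, the lowest HS array only just, and MC+HS overlapped both groups. The HS difference was 0.44 ± 0.17 (unadjusted p = 0.0298 and adjusted p = 0.635 in limma) with all 9 arrays and 0.32 ± 0.16 (adjusted p = 0.416) without HS replicate 1. In MC+HS it was 0.15, with an adjusted p of 0.9999 with all 9 arrays and 0.733 without HS replicate 1.

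The mean deviation of the 5 interferon-inducible genes minus that of Parp1 and Parp2 put the contrast on each array. It was -0.17, 0.39 and -0.22 on the mock arrays, 0.49, 2.06 and 2.35 on the HS arrays, and 1.75, 1.84 and 1.82 on the MC+HS arrays. The lowest vector value, 0.49 on HS replicate 1, lay near the highest mock value, 0.39 on mock replicate 2. The other 5 vector arrays were at 1.75 or more.

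**Figure D3:**
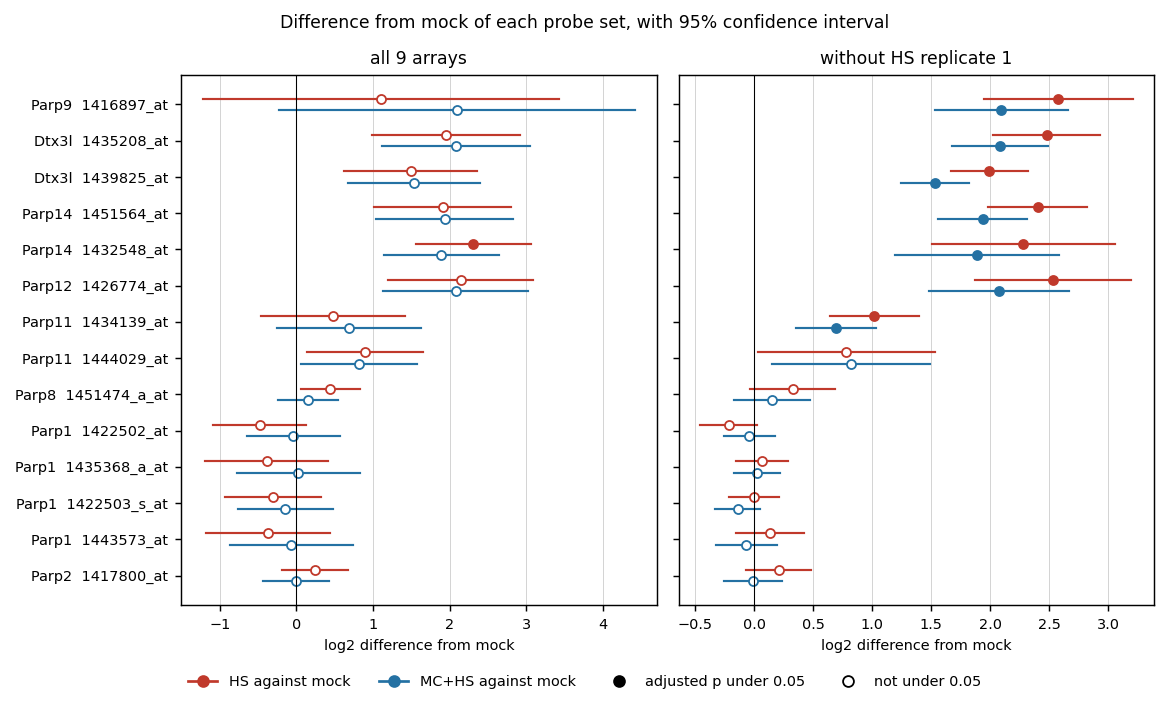
Log2 difference from mock of each of the 14 probe sets in HS (red) and MC+HS (blue), with all 9 arrays on the left and without HS replicate 1 on the right. Points are estimates, bars 95% confidence intervals and filled points adjusted p under 0.05. Without HS replicate 1 the 7 filled rows are those of Parp9, Dtx3l, Parp14, Parp12 and the brighter Parp11 probe set, and the intervals of the Parp1, Parp2 and Parp8 rows cross 0.

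Between the purifications no member was called, with all 9 arrays or without HS replicate 1, where 0% and 0.00756% of all genes were called. With all 9 arrays none of the 5 interferon-inducible genes had an unadjusted p under 0.05 for MC+HS against HS. Without HS replicate 1, the differences of MC+HS from HS were -0.48 for Parp9, -0.46 for Parp12, -0.47 for Parp14, -0.40 for Dtx3l and -0.33 for Parp11. By the probe set that stands for each gene, Parp14 alone had an unadjusted p under 0.05, at 0.0339, with a 95% interval of -0.89 to -0.04 and an adjusted p of 0.613 in limma. The second Dtx3l probe set was at -0.46 (95% interval -0.78 to -0.13, unadjusted p = 0.0100, adjusted p = 0.535 in limma). Of all 13224 genes in that fit, 794 had an unadjusted p under 0.05. Leaving out mock replicate 2 as well brought 4 of the 5 genes (all but Parp11) under an unadjusted p of 0.05, beside 740 of 13160 genes, and the smallest adjusted p of the 5 was 0.461. In 4 of the 5 genes every MC+HS array was below both remaining HS arrays, and 15.8% of all genes had that order. With only 2 HS arrays left, the fit did not call differences of this size.

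**Figure D4:**
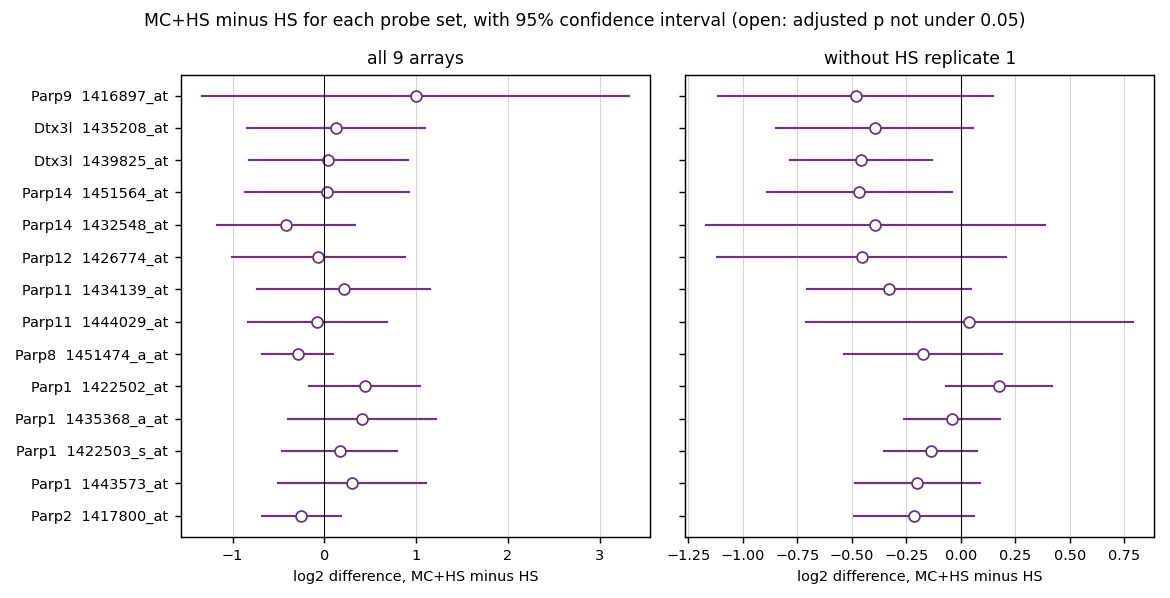
Log2 difference of MC+HS from HS for each of the 14 probe sets, with all 9 arrays on the left and without HS replicate 1 on the right. Points are estimates and bars 95% confidence intervals, and all points are open because no adjusted p was under 0.05. Parp9 moves from 0.99 with all 9 arrays to -0.48 without HS replicate 1.

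The order of levels was HS, MC+HS, mock in each of Parp9, Dtx3l, Parp14, Parp12 and Parp11 without HS replicate 1, where HS and MC+HS did not differ by the test and both differed from mock. Mock replicate 2 was the highest mock array for Parp9, Dtx3l, Parp14 and Parp12. It was also highest for the interferon-driven transcription factor Irf7, at 10.18 against 8.60 and 8.86, for Irf9 at 9.41 against 8.22 and 8.47, and for Usp18, which dampens interferon receptor signalling, at 9.62 against 7.67 and 7.95. Leaving out mock replicate 2 with HS replicate 1 kept all 5 genes called in HS, and 4 in MC+HS, where Parp11 missed at an adjusted p of 0.0551. By probe set, 7 of 8 were called higher in HS and 6 of 8 in MC+HS, beside 980 and 841 of all 27755. Leaving out mock replicate 2 only gave a call of Parp12 in each vector group, with adjusted p of 0.0285 in HS and 0.0357 in MC+HS. By probe set this was 2 of 8 called higher in each vector group, beside 238 in HS and 188 in MC+HS of all 28063.

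Parp14, Dtx3l and Parp9 are neighbours on chromosome 16 in the RefSeq gene order, and Parp9 and Dtx3l are read in opposite directions from a shared start region in the human genome. The flanking measured genes were Slc49a4 and Hspbap1 on the Parp14 side and Kpna1 and Wdr5b on the Parp9 side. None of these 4 was called in any comparison, with or without HS replicate 1. Without that array their differences from mock lay between -0.15 and 0.16 apart from Hspbap1 in HS, at -0.56 ± 0.18 (adjusted p = 0.158). The 3 neighbours Parp14, Dtx3l and Parp9 were 1.93 to 2.58 above mock in the same fit.

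The members were also set beside each other by the root mean square difference, over the 9 arrays, of log2 levels centred on the mock mean. Over 9 arrays Parp14 and Dtx3l were each other's closest gene of all measured, at 0.113, and after that Parp14 was closest to Trim30a (0.165), AW011738 (0.190) and Fgl2 (0.195). Among genes that are not members, Dtx3l came closest to Trim30a, Psmb9 and AW011738 (0.234), and Parp12 to Tspo (0.134), Uba7 and Psmb9. Parp12 and Dtx3l were 0.218 apart, so Parp12 was nearer to Dtx3l than AW011738 was. Parp9, with its low value on HS replicate 1, was closest to Ms4a6b (0.238), Rnf213 and Serping1, and its closest member, Dtx3l, ranked only 41. Without HS replicate 1, Parp12 became the second closest gene to Parp9 (0.0892), after Nlrc5 (0.0800), and Parp9 the closest to Parp12. Over those 8 arrays Dtx3l stayed the closest gene to Parp14 (0.120), but Oasl1 (0.102) and Cd274 (0.117) were closer to Dtx3l than Parp14 was.

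Parp11 kept apart from the other 4 interferon-inducible genes in this measure, which reads size as well as shape. Its closest genes were Vwa5a (0.157), Dmp1 and Ecscr over 9 arrays, and Slc7a11 (0.0998), Nid1 and Glipr2 over 8. The dim Parp14 probe set 1432548_at was closest to Trim34a (0.201), Cd72 and Lgals9.

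Promoter sequence was compared between interferon-inducible members and the DNA-repair member Parp1. RefSeq start sites of assembly GRCm38.p6 were matched for 6 of the 9 listed genes, at 7 sites, and Parp9, Parp10 and Parp14 had no entry. The interval from 250 bases before to 50 after each start was searched on both strands for GAAANNGAAA, the core of the interferon-stimulated response element, and for TTCNNNGAA, the core of the gamma-activated site. Only 1 of the 7 windows held a match, at the first start site of Parp11. The first motif lies there on the opposite strand from -44 to -35 and the second from -37 to -29, so they overlap. Of all 32851 promoter windows, 3.44% held the first motif and 8.3% the second. The 250 bases before the start follow, 5′ to 3′ on the gene's strand, with both motifs in capitals. They are shown to set the 3 interferon-inducible members with an entry beside Parp1, at chr6:127446590-127446839 (plus strand), chr16:35939028-35939277 (minus strand), chr6:39118350-39118599 (minus strand) and chr1:180568641-180568890 (plus strand).
Parp11: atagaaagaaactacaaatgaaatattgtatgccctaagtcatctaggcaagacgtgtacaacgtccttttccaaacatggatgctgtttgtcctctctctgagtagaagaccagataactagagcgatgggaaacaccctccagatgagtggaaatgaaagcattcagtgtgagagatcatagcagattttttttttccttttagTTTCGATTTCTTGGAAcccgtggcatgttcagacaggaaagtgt
Dtx3l: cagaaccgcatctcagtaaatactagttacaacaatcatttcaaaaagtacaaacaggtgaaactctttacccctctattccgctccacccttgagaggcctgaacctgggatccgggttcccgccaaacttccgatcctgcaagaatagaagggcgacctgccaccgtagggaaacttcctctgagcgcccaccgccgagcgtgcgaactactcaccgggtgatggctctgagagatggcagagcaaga
Parp12: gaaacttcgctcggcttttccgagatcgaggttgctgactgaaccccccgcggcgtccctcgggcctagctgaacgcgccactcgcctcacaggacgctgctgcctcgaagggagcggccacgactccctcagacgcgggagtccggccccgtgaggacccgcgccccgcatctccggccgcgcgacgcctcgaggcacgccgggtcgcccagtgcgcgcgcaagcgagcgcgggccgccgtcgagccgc
Parp1: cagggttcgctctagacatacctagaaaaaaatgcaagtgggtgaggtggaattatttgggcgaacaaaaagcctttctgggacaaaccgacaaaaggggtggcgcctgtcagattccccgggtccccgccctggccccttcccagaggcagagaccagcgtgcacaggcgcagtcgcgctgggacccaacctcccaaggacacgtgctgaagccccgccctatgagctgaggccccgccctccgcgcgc
The Parp11 run is that of its first start site. In it the capitals lie near the 3′ end, toward the start site, and the other 3 runs hold no capitals because neither spelling occurs in them. These windows say nothing of sites farther away or spelled otherwise. The guanine and cytosine content of the 300-base window was 42% for the first Parp11 site, 54.3% for Dtx3l, 73.7% for Parp12 and 62% for Parp1. It was 59% at the second Parp11 site, which held neither motif.

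Among the interferon signalling factors, 13 of 14 listed genes were measured and 2 were called higher in each vector group with all 9 arrays, Irf7 and Irf9. Irf7 rose by 2.64 ± 0.39 (adjusted p = 0.0185) in HS and by 2.56 ± 0.39 (adjusted p = 0.0281) in MC+HS, and Irf9 by 1.90 ± 0.32 (adjusted p = 0.0352) and 1.82 ± 0.32 (adjusted p = 0.0494). Without HS replicate 1, 6 were called higher in HS (Usp18, Irf7, Irf9, Stat2, Socs1 and Ifngr1) and 4 in MC+HS (Usp18, Irf7, Irf9 and Stat2). Usp18 was then 3.47 ± 0.43 and 3.30 ± 0.38 above mock. Socs1 was below the 40th percentile on all 3 mock arrays and entered the test through the vector arrays. The list's median difference was 0.29 in MC+HS, and in HS 0.32 with all 9 arrays and 0.54 without HS replicate 1. The receptor chain Ifnar1 and the receptor-bound kinases Jak1 and Tyk2 were not called in either fit. Irf7 on HS replicate 1 stood at 11.72, at the level of the other HS arrays at 11.75 and 12.09, unlike Parp9 and Parp11.

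Of 11 measured genes among the other ADP-ribosyltransferases, limma called 0 with all 9 arrays, with 1 at an unadjusted p under 0.05 in each comparison with mock. Without HS replicate 1, Zc3hav1 and Parp3 were called higher in HS and Zc3hav1 in MC+HS. Zc3hav1, also called PARP13 or ZAP, is an inactive PARP that binds viral RNA. It read 8.27, 9.28 and 8.27 in mock, 9.23, 10.55 and 10.96 in HS, and 10.19, 10.36 and 10.15 in MC+HS, so HS replicate 1 lay just below mock replicate 2 and HS overlapped mock. With all 9 arrays it was 1.64 ± 0.45 (adjusted p = 0.273) above mock in HS and 1.63 ± 0.45 (adjusted p = 0.319) in MC+HS, and without HS replicate 1 it rose by 2.15 ± 0.26 (adjusted p = 0.000808) and 1.63 ± 0.23 (adjusted p = 0.00262). Parp3, which acts in strand-break repair, was 0.94 ± 0.20 (adjusted p = 0.0236) above mock in HS and 0.67 ± 0.17 (adjusted p = 0.0735) in MC+HS without HS replicate 1, by probe set 1451969_s_at. Its HS difference with all 9 arrays was 0.06 ± 0.62 (adjusted p = 0.968). Another Parp3 probe set, 1426210_x_at, was called in both groups without HS replicate 1, at 1.32 ± 0.19 (adjusted p = 0.00259) in HS and 1.15 ± 0.17 (adjusted p = 0.00364) in MC+HS, so whether Parp3 is called in MC+HS depends on the probe set. On HS replicate 1 these probe sets disagreed, at 6.57 for 1451969_s_at and 10.00 for 1426210_x_at. The list's median difference was 0.14 in MC+HS, and in HS -0.08 with all 9 arrays and 0.27 without HS replicate 1.

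The genes that remove or read ADP-ribose, such as the glycohydrolase Parg, gave 0 calls in limma among 11 measured, with 0 at an unadjusted p under 0.05 against mock, with or without HS replicate 1. Their median difference was -0.01 in MC+HS, and in HS -0.30 with all 9 arrays and 0.07 without HS replicate 1. Parg itself differed from mock by -0.12 in MC+HS, and in HS by -0.30 with all 9 arrays and 0.02 without HS replicate 1. Of 14 partners in base excision and strand-break repair, only Timeless, a replication fork protein that binds Parp1, was called, without HS replicate 1. It then rose by 1.17 ± 0.18 (adjusted p = 0.00301) in HS and by 0.77 ± 0.16 (adjusted p = 0.0228) in MC+HS, against 1.02 ± 0.20 (adjusted p = 0.0705) and 0.77 ± 0.20 (adjusted p = 0.269) with all 9 arrays. The partners' median was 0.03 in MC+HS, and in HS -0.23 with all 9 arrays and 0.06 without HS replicate 1. Xrcc1 and Hpf1, which work directly with Parp1, were not called. This list also had 0 calls with all 9 arrays, and 1 gene at an unadjusted p under 0.05 in each comparison with mock.

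Of 13 genes of NAD supply and use, 1 was called higher in each vector group, with all 9 arrays and without HS replicate 1. Their median was 0.07 in MC+HS, and in HS -0.22 with all 9 arrays and 0.08 without HS replicate 1. The called gene was Bst1, a surface enzyme that consumes NAD, at 2.53 ± 0.31 (adjusted p = 0.00875) in HS and 2.23 ± 0.31 (adjusted p = 0.0203) in MC+HS with all 9 arrays. Its mock levels of 4.48 to 4.87 were dim, and it was measured through the vector arrays. Nampt, which makes the NAD precursor, was 0.52 ± 0.13 (adjusted p = 0.0613) above mock in HS without HS replicate 1 by its brightest probe set. In MC+HS that probe set was at 0.31 (adjusted p = 0.238 in limma) and not called. A dimmer Nampt probe set, 1417190_at, was called at 0.82 ± 0.11 (adjusted p = 0.00117) in HS and 0.56 ± 0.10 (adjusted p = 0.00751) in MC+HS in that fit. A still dimmer one, 1448607_at, was not called, at 0.43 (adjusted p = 0.544) in HS and -0.34 (adjusted p = 0.611) in MC+HS. The Nampt probe sets thus did not agree.

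**Figure D5:**
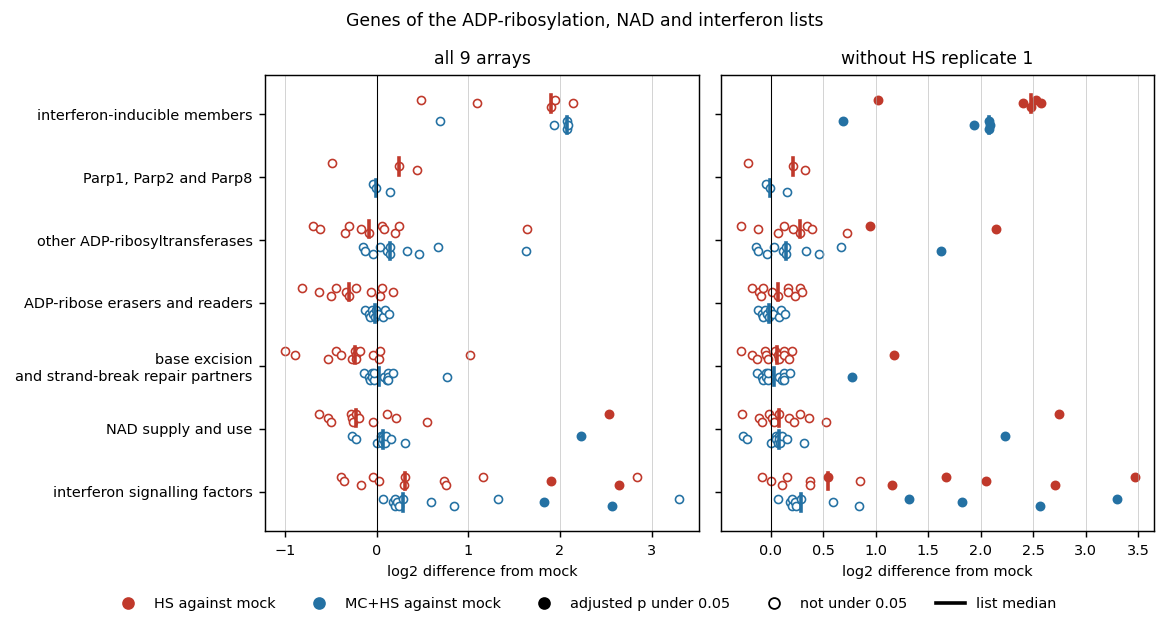
Log2 difference from mock of each measured gene of 7 lists in HS (red) and MC+HS (blue), with all 9 arrays on the left and without HS replicate 1 on the right. Each point is 1 gene, filled where the adjusted p was under 0.05, and the vertical tick is the list's median. The interferon-inducible members lie at 0.69 or above without HS replicate 1, and the erasers, readers and most repair partners lie around 0.

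The tissue is a mixture of cells, in which a change in the number of cells of a type and in RNA per cell cannot be told apart. Medium spiny neuron markers, which define the striatum, were measured for 8 of 8 genes on the array, and 0 were called in either vector group by limma, with 1 at an unadjusted p under 0.05, in MC+HS without HS replicate 1. Their summed signal was 26109 to 28932 in mock and 22898 to 30697 in MC+HS, but 6091 on HS replicate 1. Of 6 measured markers of infiltrating monocytes and macrophages, 1 (Chil3) was called higher in each vector group with all 9 arrays, and 3 (Chil3, Plac8 and Ms4a4c) without HS replicate 1. Their summed signal was 2003 to 3556 in mock, 5956 to 6577 in MC+HS and up to 7997 in HS, with 2064 on HS replicate 1. The other 3 measured, Ccr2, Vcan and Fn1, were not called, and F10 and Arg1 were too dim to be measured.

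NK cell markers had 2 of 5 called higher (Gzma and Gzmb) in each vector group in both fits, with a summed signal of 370 to 388 in mock, 1087 to 2651 in HS and 976 to 2047 in MC+HS, and Ncr1 and Klre1 too dim. Klrd1, Eomes and Prf1 were not called. Prf1 was below mock, at -0.23 in HS and -0.21 in MC+HS without HS replicate 1. Gzma, Gzmb, S100a8, S100a9 and Chil3 were below the 40th percentile on all 3 mock arrays, so they too entered the test through the vector arrays. Neutrophil markers had 2 of 3 called in HS (S100a8 and S100a9) in both fits, and in MC+HS S100a9 with all 9 arrays and both without HS replicate 1. Their sums were 173 to 244 in mock, 530 to 791 in HS and 332 to 487 in MC+HS, with Mpo, Elane, Cxcr2 and Mmp8 too dim. The other measured neutrophil marker, Ngp, was not called, at -0.29 in HS and -0.05 in MC+HS without HS replicate 1. Of 7 microglia markers, 4 were called lower in each vector group without HS replicate 1 (P2ry12, Siglech, Gpr34 and Fcrls), 1 in HS and 2 in MC+HS with all 9 arrays, and their sums were 4589 to 5418 in mock, 2630 to 3797 in HS and 3130 to 3950 in MC+HS. Cx3cr1, Sall1 and Tmem119 were not called. Tmem119 was above mock, at 0.35 in HS and 0.22 in MC+HS without HS replicate 1. Endothelial markers had 3 of 7 called higher in each vector group without HS replicate 1, with sums of 4995 to 5809 in mock, 4055 to 8723 in HS and 7200 to 8145 in MC+HS. Astrocyte markers had 3 of 7 called higher in HS and 2 in MC+HS in that fit, with sums of 36349 to 38163 in mock, 9690 to 43775 in HS and 37959 to 44458 in MC+HS. T cell, B cell and oligodendrocyte markers gave 0 calls in limma. Against mock, 1 oligodendrocyte marker had an unadjusted limma p under 0.05, in HS without HS replicate 1. Only 3 T cell markers and 1 B cell marker were measured, and Cd3d, Cd3g, Cd79a and Cd79b were too dim. The part of these cell types in the levels of Parp9, Parp11, Parp12, Parp14 and Dtx3l was not tested.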

How the data were processed

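Each of 9 mice gave RNA from tissue near the injection sites and 1 array. The authors deposited 1 linear intensity per probe set and array. GCOS 1.4.0.036 is the tool in the submitters' processing notes. The summary method and scaling were not given in the sources used here. From these, log2(signal + 16) was taken and every array was shifted to a common median. The 64 control probe sets and those not above the 40th percentile on at least 3 arrays were left out. Symbols came from the platform annotation, 34945 probe sets having 1, 932 several and 9160 none, and a gene was read by its probe set with the highest mean. limma 3.58.1 in R 4.3.3 (lmFit, eBayes with an intensity trend) fitted all 9 arrays with group as the only term, two-sided, with Benjamini-Hochberg adjustment over all probe sets. Errors are SE of the log2 difference. The code was tested on simulated data. Genes were named by rule: all members, called genes of 5 lists (for a list with none, the 2 with the smallest p), the 3 closest patterns and the 2 flanking genes on each side, and fewer are given in the text. The members and lists were chosen with earlier results of these data known. The alternatives are other pseudocounts, filters, scalings, priors, weights and probe set rules, arrays left out, and a replicate block. The number of arrays limits the precision.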

Additional observations from a re-analysis of the deposited data

How the results depend on the processing

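In all 22 settings for single genes, the reported one included, Parp9, Parp11, Parp12, Parp14 and Dtx3l stayed above mock in both vector groups, and whether they passed the threshold depended on the setting. Of 501 single-gene values under alternatives, 437 kept their direction and side of the threshold, 41 newly passed it and 23 turned direction. The number of members called against mock, 0 with all 9 arrays, was 3 in HS and 3 in MC+HS with quantile normalization, 7 and 5 with array quality weights (Parp1 lower, and the weights did not converge), 2 and 1 with the mean of a gene's probe sets, and 1 in HS with any probe set called. On the 6 arrays compared it was 5 in MC+HS and 0 in HS. Leaving out 1 array gave 0 to 5 in HS and 0 to 5 in MC+HS, with 5 and 5 without HS replicate 1 and 1 and 1 without mock replicate 2. Leaving out both, chosen after seeing the data, gave 5 and 4. For MC+HS against HS the number was 0, and 3 (Parp1, Parp2 and Parp8) with array quality weights. A filter at the 60th percentile left 7 members measured. Apart from leaving out HS replicate 1, mock replicate 2 or both, the share of all genes called was not worked out for these settings. Their counts of members therefore have no background beside them. The cause of the changes between settings was not tested.

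The differences of MC+HS from HS turned direction under several settings. With quantile normalization, no shift between arrays and array quality weights, Dtx3l was -0.209, -0.144 and -0.182, Parp11 -0.038, -0.066 and -0.036, and Parp14 -0.265, -0.245 and -0.327. Parp14 was also -0.024 with a pseudocount of 64 and -0.197 with the mean of its probe sets, and Parp9 was -0.338 with array quality weights. Leaving out 1 array moved Dtx3l from -0.396 to 0.486, Parp11 from -0.329 to 0.584, Parp14 from -0.466 to 0.346, Parp9 from -0.483 to 1.811 and Parp12 from -0.455 to 0.196. The low ends are without HS replicate 1 and the high ends without HS replicate 3. Against mock in MC+HS, leaving out 1 array moved Parp1 from -0.131 to 0.005 and Parp2 from -0.079 to 0.078, and Parp2 was 0.018 with no shift.

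Deviations of same-numbered arrays correlated at -0.168 to 0.287. Differently numbered arrays were not compared, so these values cannot show whether the numbers pair the mice. The replicate block left 0 members called in each comparison, with smallest adjusted p of 0.0811 in HS and 0.101 in MC+HS. Arrays cannot show levels of probe sets near background, as for Parp14 1432548_at in mock.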
